A study of Mus musculus with 4 samples.

Results

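Genes for collagen, laminin and integrin chains were examined in sorted cells of the regenerated olfactory epithelium. Members were all rows of the count files whose symbol begins with Col, a number, the letter a and a number, whose symbol is Lama, Lamb or Lamc with a number from 1 to 5, or whose symbol begins with Itga or Itgb. Described here are 86 of 23337 gene symbols, namely 43 collagen chains, 10 laminin chains, 27 integrin chains and 6 symbols that match by name but encode no chain of these families. A gene was described by test when it exceeded 1 CPM (counts scaled to the summed gene counts of a sample) in at least 2 samples, which 39 collagens, 10 laminins, 25 integrins and 4 of the name matches did. The CPM values given below were instead scaled to the summed counts of the kept genes multiplied by an edgeR normalisation factor (TMM). The symbol rule itself used no comparison between samples, but the members and gene lists were chosen with earlier results of these data known.

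Collagens are triple-helical proteins that form fibrils, networks and transmembrane anchors, and laminins are trimers of an alpha, a beta and a gamma chain that build the sheet-like core of basement membranes. Integrins are cell-surface receptors made of an alpha and a beta subunit that bind these matrix proteins and link them to the cytoskeleton. In the olfactory epithelium, horizontal basal cells are the stem cells that lie flat on the basement membrane, whereas type I collagen is made mainly by fibroblasts of the underlying lamina propria and by bone.

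Libraries were made from Tomato-positive sorted cells of 4 mice of mixed background, with 1 mouse per sample. The Lmnb1-/- mutants were K5Cre;Lmnb1 fl/fl and the Lmnb1+/- controls were heterozygous for the floxed allele, and all carried K5Cre and the R26 Ai9 tdTomato reporter. Cre was driven by the Keratin 5 promoter, which in this epithelium is active in horizontal basal cells, so that sorted cells were these stem cells and their progeny within a mosaic tissue. All mice were given 50 mg/kg methimazole, which destroys the olfactory epithelium, and had recovered for 4 weeks. By the paper's methods this dose was injected 2 times, and recovery was counted from the later injection. Samples came as 2 experimental groups of 1 control and 1 mutant littermate, here numbered 1 and 2. Sex, parents, age and treatment were shared within an experimental group and, by the series text, differed between them. Sample preparation and sequencing were also shared within an experimental group. The parts of all these in any difference between experimental groups cannot be told apart. What differed in treatment, and the age and sex of each experimental group, were not given in the sources used here.

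Gene counts summed to between 14833396 and 23704638 per sample, and 3 counts, taken as the limit of detection, corresponded to between 0.130 and 0.203 CPM. Mutant 1 stood apart, since 1603 genes had 0 counts in it against 5173 to 6053 in the other samples, and 39.4% of its uniquely aligned reads lay outside annotated genes against 22.1% to 24.9%. The tally of alignments that were not unique differed by experimental group. It was 67710764 in control 1 and 62182762 in mutant 1, against 10308536 in control 2 and 6757456 in mutant 2. Genes with 0 counts in the other 3 samples gave a background of 2.04 counts per kb of exon in mutant 1, which is 11.9 counts for Lamb1 (439 measured) but 18.3 counts for Col22a1 (92 measured). The targeted gene Lmnb1 was at 20.6 CPM (control 1) and 18.8 CPM (control 2), against 14.1 CPM (mutant 1) and 10.1 CPM (mutant 2), and its log2 fold change was -0.72 ± 0.31 (SE, adjusted p = 0.195). Reads were counted over the whole gene although Cre removes exon 2 alone, so that this level is a weak check of the genotype.

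The first question was which matrix and adhesion genes differed with the loss of Lmnb1. In edgeR's likelihood-ratio test with experimental group as a block, 3 chains were lower in mutants (Lamb1, Col1a1 and Col1a2) and 0 were higher, out of 74 tested chains. By family, 2 of 39 collagens, 1 of 10 laminins and 0 of 25 integrins passed an adjusted p of 0.05. Among all 15438 genes tested, 4.3% were lower and 1.28% higher at this threshold, or 5.58% in either direction, so that the collagen share of 5.13% was near the background, while the laminin share of 10.0% rested on 1 gene. An unadjusted p below 0.05 was reached by 8 collagens, 5 laminins and 3 integrins, against 15.9% of all genes. Since whole sorted populations were sequenced, fewer cells of a type and less RNA per cell cannot be told apart in any of these differences. The 3 calls were all lost in a model without the block, in which 0 of all 15438 genes were lower and 0.0389% higher at this threshold. Leaving out 1 sample leaves an unpaired comparison of 3 samples, for which only effect sizes are given.

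Laminins gave the largest called difference of the 3 families. Lamb1, the beta 1 chain of many widespread laminins, was at 46.8 CPM (control 1) and 26.4 CPM (control 2), against 19.0 CPM (mutant 1) and 10.8 CPM (mutant 2). Both mutants lay below both controls. The log2 ratio of mutant to control was -1.29 within experimental group 1 and also -1.29 within experimental group 2, and the fitted log2 fold change was -1.30 ± 0.24 (SE, 2 mice per genotype; adjusted p = 2.48e-05). The quasi-likelihood test gave an adjusted p of 0.0163 and DESeq2 0.00108. With 1 sample left out the log2 fold change lay between -1.77, without mutant 1, and -0.81, without control 1. Lamb1 (ENSMUSG00000002900.16) lies on chromosome 12 from 31265234 to 31329644 on the plus strand (mm10).

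Lamb2 encodes the beta 2 chain, which takes the same place as beta 1 in other trimers. It was at 96.6 and 71.9 CPM in controls 1 and 2 and at 97.1 and 95.4 CPM in mutants 1 and 2, with a log2 fold change of 0.21 ± 0.18 (adjusted p = 0.678). Per kb of exon, the level of Lamb1 was 0.466 of that of Lamb2 in control 1 and 0.354 in control 2, but 0.189 in mutant 1 and 0.109 in mutant 2. The usual partners of these beta chains did not pass the test. Lamc1, the gamma 1 chain, was at 58.0 and 61.8 CPM in controls and 59.3 and 69.0 CPM in mutants (log2 fold change 0.10 ± 0.17, adjusted p = 0.881). Lama5, the alpha 5 chain of epithelial basement membranes, was at 104 and 121 CPM in controls and at 123 and 163 CPM in mutants (log2 fold change 0.33 ± 0.19, adjusted p = 0.386). Both Lama5 values in mutants were above both in controls, mutant 1 by a narrow margin.

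Lamb3 and Lama3 encode chains of laminin-332, the trimer that anchors basal epithelial cells through hemidesmosomes, and neither passed the likelihood-ratio test. Lamb3, the beta 3 chain, was at 404 CPM (control 1) and 323 CPM (control 2), against 758 CPM (mutant 1) and 490 CPM (mutant 2), and its groups did not overlap. Its log2 fold change of 0.75 ± 0.25 lay on the threshold, with an adjusted p of 0.0502 in the likelihood-ratio test, 0.0215 in the quasi-likelihood test and 3.8e-06 in DESeq2. Lama3, the alpha 3 chain, was at 53.9 and 62.6 CPM in controls and 63.3 and 84.9 CPM in mutants (log2 fold change 0.34 ± 0.17, adjusted p = 0.299), and mutant 1 exceeded control 2 by less than 1 CPM.

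Both chains were far from equal in level per length. Per kb of exon, Lamb3 was 15.7 and 10.8 times Lama3 in controls 1 and 2 and 25.1 and 12.1 times in mutants 1 and 2. Exon length here joins the exons of all annotated transcripts of a gene. Which transcripts the cells made was not measured, and the ratio depends on it. At a mean of 96.3 CPM per kb of exon over the 4 samples, Lamb3 had the highest level of all members. The annotated span of Lamb3 crosses G0s2 and Hsd11b1 on the opposite strand, and the strand setting of the counting was not given in the sources used here, so reads of these genes may not be fully separated.

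**Figure D1:**
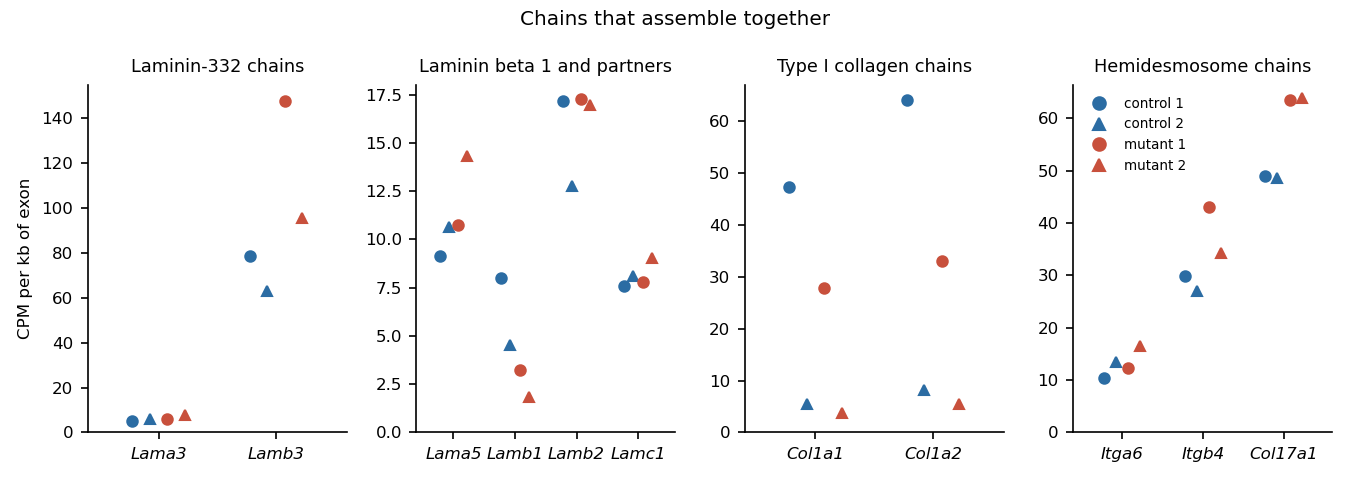
Level (CPM per kb of exon, vertical axes from 0, scales differing between panels) of partner chains, with 1 point per sample. Circles are experimental group 1, triangles experimental group 2, blue control and red mutant. Lamb1 and Lamb2 share a panel with their partners although they take the same place in different trimers. The last panel holds the hemidesmosome chains Itga6, Itgb4 and Col17a1. Lamb1 is lower in both mutants than in both controls while Lamb2 is not, Lamb3 lies far above Lama3, and both type I collagen chains separate by experimental group more than by genotype.

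The alpha chains Lama1 and Lama2 were less abundant. Lama1, a chain of early basement membranes, was at 35.0 and 21.5 CPM in controls and 44.1 and 40.0 CPM in mutants, without overlap, and its log2 fold change of 0.61 ± 0.22 did not pass (adjusted p = 0.0765). Lama2, the alpha 2 chain known from muscle and nerve sheaths, was at 11.6 and 3.52 CPM in controls and 5.12 and 1.49 CPM in mutants (log2 fold change -1.21 ± 0.54, adjusted p = 0.225). Its ratio was alike in both experimental groups at -1.16 and -1.19, yet mutant 1 exceeded control 2. Over the 10 laminins, 7 had a positive and 3 a negative log2 fold change with a median of 0.27, against -0.0086 over all genes tested. Both mutants exceeded both controls in 4 laminins (Lama1, Lama3, Lama5 and Lamb3), against 12.6% of all genes, and lay below both in 1 (Lamb1), against 13.3%.

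Among collagens, the 2 chains of type I collagen, the fibril-forming protein of bone and connective tissue, were lower in mutants. Col1a1 was at 280 CPM (control 1) and 32.7 CPM (control 2), against 166 CPM (mutant 1) and 22.6 CPM (mutant 2). Col1a2 was at 343 CPM (control 1) and 43.2 CPM (control 2), against 177 CPM (mutant 1) and 29.7 CPM (mutant 2). For both genes the genotypes overlapped, because both samples of experimental group 1 were above both samples of experimental group 2. Within experimental groups 1 and 2, the log2 ratio was -0.76 and -0.53 for Col1a1 and -0.96 and -0.54 for Col1a2. The fitted log2 fold change was -0.65 ± 0.19 for Col1a1 (adjusted p = 0.0163) and -0.76 ± 0.20 for Col1a2 (adjusted p = 0.00682), and both calls held with the quasi-likelihood test (0.0389 and 0.0329) and DESeq2 (0.00646 and 0.000996).

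These 2 calls depend on the pairing. Without control 1, the unpaired log2 fold change turned to 1.54 for Col1a1 and 1.27 for Col1a2, and without mutant 2 it was 0.12 for Col1a1. Per kb of exon, Col1a1 was 0.738, 0.682, 0.846 and 0.686 of Col1a2 in control 1, control 2, mutant 1 and mutant 2, so that the 2 chains kept a similar proportion while their levels differed widely. Col1a1 (ENSMUSG00000001506.10) lies on chromosome 11 from 94936224 to 94953042 and Col1a2 (ENSMUSG00000029661.16) on chromosome 6 from 4504814 to 4541544, both on the plus strand.

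Markers of fibroblasts, the usual source of type I collagen, were read beside these values. Of 10 fibroblast markers 6 were tested and 0 passed the likelihood-ratio test or the quasi-likelihood test, with a median log2 fold change of -0.78, while DESeq2 called Dcn higher (log2 fold change 0.68 in edgeR, adjusted p = 0.00938 in DESeq2). Their summed level was 215 and 232 CPM in controls and 227 and 452 CPM in mutants, of which the broadly expressed proteoglycan Dcn made up 165, 190, 194 and 413 CPM in control 1, control 2, mutant 1 and mutant 2. Fap, a protease of activated fibroblasts, was at 15.5 and 29.2 CPM in controls and 12.5 and 31.7 CPM in mutants. Pdgfra, a fibroblast receptor, was at 17.2 and 5.001 CPM in controls and 9.28 and 4.81 CPM in mutants, and Lum, a fibril-binding proteoglycan, at 8.56 and 5.57 CPM in controls and 4.77 and 1.36 CPM in mutants. Of the 6 tested fibroblast markers, 5 had a negative and 1 a positive log2 fold change. Twist1 (-1.50 ± 1.01) and Pi16 (-1.08 ± 0.81) were among the negative ones, at low levels. The defining markers Dpt and Clec3b were at 0 in 3 of the libraries and below 1 CPM in mutant 1, and Twist2 was at 0 in both samples of experimental group 2. Of 10 bone and cartilage markers 4 were tested and 0 passed in any of the 3 tests, and their sum was 51.8 and 35.7 CPM in controls and 64.0 and 46.4 CPM in mutants. Most of that sum was Alpl, the tissue-nonspecific alkaline phosphatase, at 36.4 and 28.5 CPM in controls and 48.0 and 39.3 CPM in mutants. Of the 4 tested bone and cartilage markers, 3 had a positive and 1 a negative log2 fold change. Among the untested ones, Bglap was at 2.29 and 0.048 CPM in controls and 0.434 and 0 CPM in mutants. Dmp1 was at 2.55 and 0.476 CPM in controls and 0.867 and 0.203 CPM in mutants. Cells were sorted for Tomato, and how far this left out fibroblasts and bone cells was not measured. The part of these cells in the type I collagen difference was not tested.

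The other fibrillar collagens, which co-assemble with type I or form cartilage fibrils, did not pass. All 11 tested fibrillar genes had a negative log2 fold change, with a median of -0.61, and 2 of them passed. For 4 of the 11 the ratios of the 2 experimental groups had opposite signs. Col3a1, the type III chain of elastic connective tissue, was at 148 and 17.4 CPM in controls and 73.7 and 20.5 CPM in mutants, so that the mutant was lower in experimental group 1 (log2 ratio -1.01) and slightly higher in experimental group 2 (0.23). Col5a3, a minor chain of type V collagen, was at 4.54 and 2.71 CPM in controls and 2.69 and 0.407 CPM in mutants (log2 fold change -1.63 ± 0.80, adjusted p = 0.319). Col11a1, a cartilage chain named here after its values were seen, was at 23.6 and 12.0 CPM in controls and 13.7 and 6.37 CPM in mutants (log2 fold change -0.84 ± 0.33, adjusted p = 0.138).

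Type IV collagens, the network formers of basement membranes, gave no call. All 6 genes had a positive fitted log2 fold change with a median of 0.18, between 0.04 for Col4a1 and 1.50 for Col4a4. For 5 of the 6 the ratios of the 2 experimental groups had opposite signs, against 37.3% of all genes. Col4a4, one of them, was at or below 2.60 CPM in all samples, with ratios of 3.32 and -0.62. The abundant pair Col4a1 and Col4a2 starts head to head on chromosome 8, and Col4a1 was at 105 and 37.6 CPM in controls and 94.0 and 44.9 CPM in mutants. Its level per kb of exon was 1.15 to 1.41 times that of Col4a2 in the 4 samples. The type VI chains Col6a1, Col6a2 and Col6a3, which form beaded microfibrils, were lower in the mutant of experimental group 1 and higher in that of experimental group 2, with median log2 ratios of -1.20 and 0.39 and 0 calls.

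The epithelial collagens Col17a1, Col23a1 and Col7a1 had higher measured levels in both mutants, without a call, while the transmembrane collagens Col13a1 and Col25a1 had log2 fold changes of -0.66 ± 0.70 and 0.00 ± 0.39. Col17a1, a hemidesmosomal collagen of basal cells, had the highest mean level per length of the collagens at 56.2 CPM per kb of exon. It was at 274 and 271 CPM in controls and 355 and 356 CPM in mutants, a log2 fold change of 0.38 ± 0.23 (adjusted p = 0.433, or 0.157 with the quasi-likelihood test and 0.0488 with DESeq2). Its values within a genotype were nearly equal and the groups were well apart. Col23a1, another transmembrane collagen, was at 142 and 134 CPM in controls and 222 and 175 CPM in mutants (log2 fold change 0.52 ± 0.20, adjusted p = 0.122, or 0.0213 with DESeq2). Col7a1, which forms the anchoring fibrils under stratified epithelia and is named here after its values were seen, was at 58.5 and 63.3 CPM in controls and 85.1 and 79.0 CPM in mutants (log2 fold change 0.43 ± 0.17, adjusted p = 0.116). The groups of these 3 genes did not overlap, as for Col4a6 and Col9a2, which made 5 of 39 collagens with both mutants above both controls, against 12.6% of all genes.

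Col18a1, a basement membrane collagen that is the source of endostatin, was at 111 and 48.2 CPM in controls and 99.4 and 90.1 CPM in mutants, with log2 ratios of -0.16 and 0.90 and a log2 fold change of 0.37 ± 0.24 (adjusted p = 0.499). Its span overlaps Slc19a1 on the other strand. A further 4 collagens were named for a large log2 fold change of one sign in both experimental groups, and all were at low levels. Col22a1, a fibril-associated collagen of tissue junctions, was at 1.73 and 0 CPM in controls and 3.99 and 0.542 CPM in mutants (log2 fold change 2.37 ± 1.16, adjusted p = 0.302). Col9a1, the alpha 1 chain of type IX, was at 3.72 and 8.14 CPM in controls and 5.68 and 10.6 CPM in mutants (log2 fold change 0.49 ± 0.47, adjusted p = 0.708), and both samples of experimental group 2 were above both of experimental group 1. Col28a1 was at 7.22 and 2.76 CPM in controls and 3.34 and 1.42 CPM in mutants, and Col10a1, known from hypertrophic cartilage, at 2.33 and 2.71 CPM in controls and 1.56 and 1.02 CPM in mutants. Their log2 fold changes of -1.04 ± 0.64 and -0.98 ± 0.87 did not pass (adjusted p = 0.465 and 0.682).

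**Figure D2:**
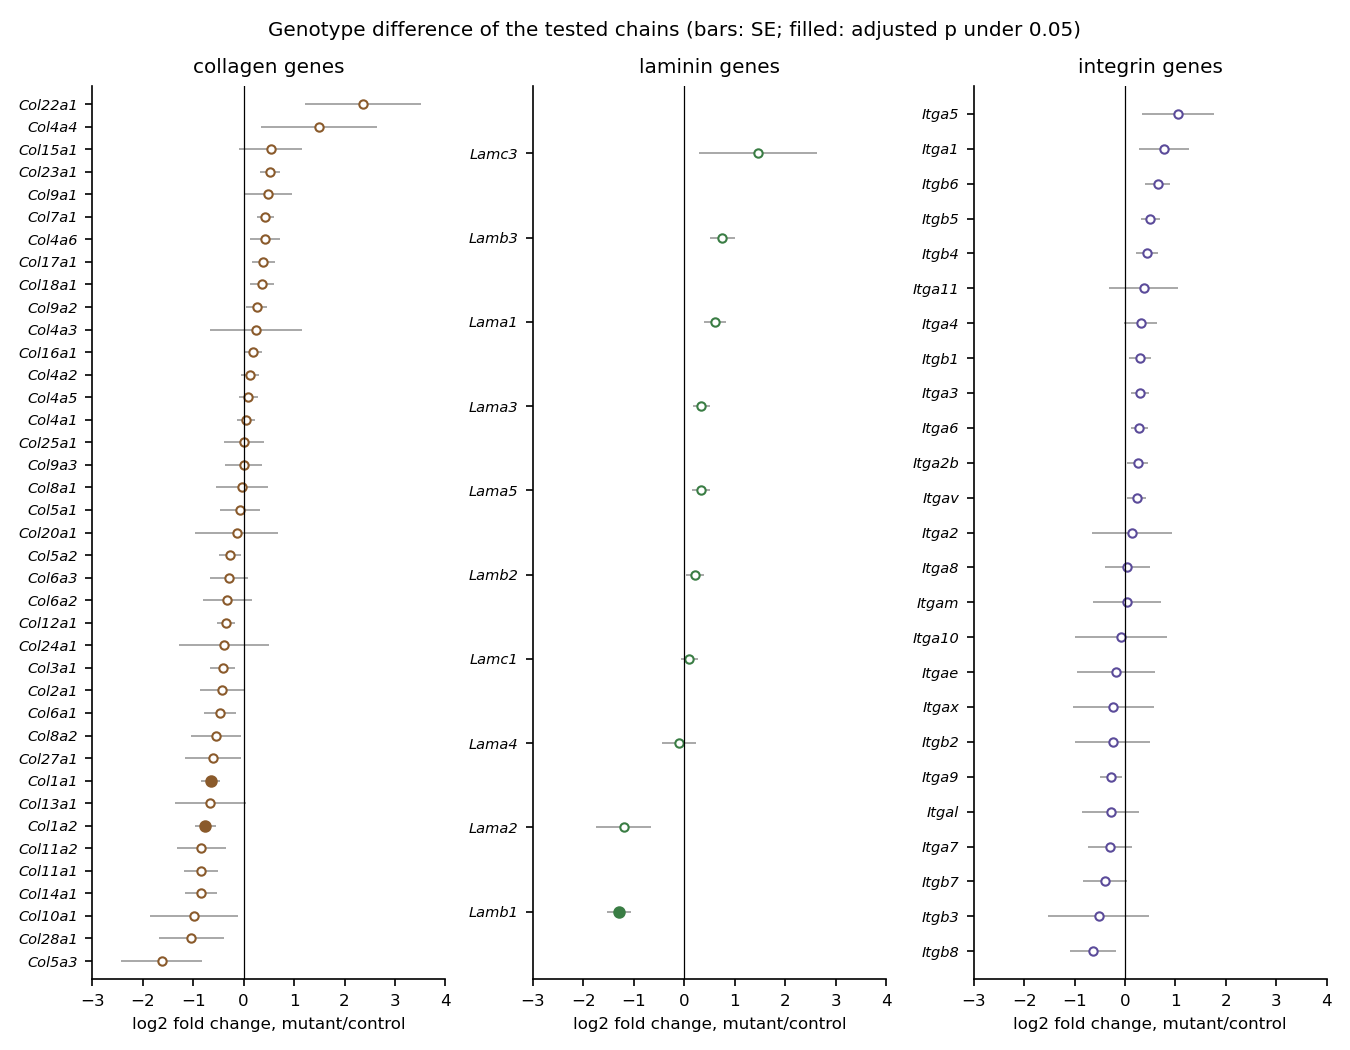
Fitted log2 fold change of mutant over control (horizontal axis) for the 74 tested collagen, laminin and integrin chains, 1 row per gene, with bars for the standard error and filled points for an adjusted p below 0.05. Filled points are Col1a1, Col1a2 and Lamb1, and none of the 25 integrins is filled.

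Integrins gave 0 calls in edgeR's likelihood-ratio test, with 3 at an unadjusted p below 0.05, and 0 in the quasi-likelihood test. DESeq2 called 2, Itgb4 and Itgb5, both higher, but gave no adjusted p for 15 of the 25 tested integrins. Over all genes, the quasi-likelihood test called 3.21% lower and 0.745% higher, and DESeq2 called 5.63% lower and 1.86% higher of the genes it gave an adjusted p. Over the 25 tested genes, 15 had a positive and 10 a negative log2 fold change with a median of 0.14. Both mutants exceeded both controls in 5 integrins (Itga1, Itga5, Itgb4, Itgb5 and Itgb6) and lay below both in 0, against 12.6% and 13.3% of all genes.

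Itgb1, the beta 1 subunit that pairs with many alpha subunits, had the highest mean level per length of the integrins at 68.4 CPM per kb of exon. It was at 158 and 309 CPM in controls and 199 and 377 CPM in mutants, with log2 ratios of 0.33 and 0.28 and a fitted log2 fold change of 0.31 ± 0.22 (adjusted p = 0.568). The samples of experimental group 2 were above those of experimental group 1 in both genotypes. Itgb4, the beta 4 subunit of hemidesmosomes, was at 191 and 172 CPM in controls and 275 and 219 CPM in mutants (log2 fold change 0.44 ± 0.21, adjusted p = 0.27, or 0.0415 with DESeq2), without overlap. Its partner Itga6, the alpha 6 subunit, was at 45.0 and 58.3 CPM in controls and 54.0 and 72.2 CPM in mutants (log2 fold change 0.29 ± 0.17, adjusted p = 0.424), with overlap. Per kb of exon, Itgb4 was 2.90, 2.02, 3.47 and 2.07 times Itga6 in control 1, control 2, mutant 1 and mutant 2.

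Itga3, the alpha 3 subunit that binds laminin-332 with beta 1, was at 115 and 86.6 CPM in controls and 143 and 105 CPM in mutants (log2 fold change 0.30 ± 0.17, adjusted p = 0.417). Of the subunits that recognise the RGD motif of matrix proteins, Itgav was at 86.5 and 90.4 CPM in controls and 87.4 and 124 CPM in mutants, with log2 ratios of 0.01 and 0.45. Itgb5, a beta subunit that pairs with alpha v, was at 125 and 97.2 CPM in controls and 164 and 148 CPM in mutants. The log2 fold change of 0.50 ± 0.19 for Itgb5 did not pass (adjusted p = 0.0968, or 0.036 with DESeq2), though both mutants were above both controls. Itgb6, an epithelial partner of alpha v that activates TGF-beta, was at 14.4 and 25.1 CPM in controls and 25.5 and 35.0 CPM in mutants (log2 fold change 0.65 ± 0.25, adjusted p = 0.121).

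Among the less abundant integrins, Itga5, the fibronectin receptor alpha 5, was at 2.77 and 1.33 CPM in controls and 3.73 and 4.34 CPM in mutants (log2 fold change 1.05 ± 0.71, adjusted p = 0.551). Itga1, a collagen-binding alpha subunit, was at 5.45 and 4.29 CPM in controls and 8.15 and 8.40 CPM in mutants (log2 fold change 0.77 ± 0.49, adjusted p = 0.481). Both genes had mutants above controls, at levels where the errors are wide. The 3 integrins with the most negative log2 fold change of one sign in both experimental groups were Itgb3, Itgb7 and Itga9. Itgb3, known from platelets, was at 2.77 and 0.667 CPM in controls and 1.52 and 0.610 CPM in mutants, and Itgb7, known from lymphocytes, at 15.1 and 4.72 CPM in controls and 11.6 and 3.52 CPM in mutants. Itga9, a receptor for tenascin, was at 29.6 and 37.9 CPM in controls and 22.5 and 34.4 CPM in mutants. Their adjusted p-values were 0.898, 0.756 and 0.638.

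Markers of horizontal basal cells were read beside the laminin-332 and hemidesmosome genes. All 8 tested markers had a positive log2 fold change, and Krt15, Egfr and Dlk2 passed, with a summed level of 2024 and 1411 CPM in controls and 2873 and 1881 CPM in mutants. Krt5 itself, the keratin of these cells, was at 1042 and 628 CPM in controls and 1410.4 and 818 CPM in mutants (log2 fold change 0.41 ± 0.27, adjusted p = 0.514, or 0.076 with the quasi-likelihood test and 0.0105 with DESeq2). DESeq2 called 6 of the 8 higher, with Krt5, Krt14 and Trp63 added to these 3, and the quasi-likelihood test called Krt15 and Dlk2. Markers of mature olfactory neurons were lower for 10 of 10, with sums of 17557 and 7656 CPM in controls and 9679 and 2220 CPM in mutants. Of 8 tested markers of globose basal progenitors, Hes6, Kit, Mki67 and Top2a were higher, all but Hes6 also with the quasi-likelihood test. DESeq2 called 5 of the 10 mature neuron markers lower. Of 8 immature neuron markers Dcx and Stmn4 were lower, and 0 of 9 sustentacular, 9 ensheathing glia, 10 endothelial, 8 mural and 2 tested platelet markers passed the likelihood-ratio test. Of these the quasi-likelihood test called sustentacular Cbr2 higher (adjusted p = 0.0146), and DESeq2 called Cbr2 (0.000243), Cyp2g1 (0.0355) and Sox2 (0.0478) higher. The part of cell proportions in the laminin and integrin differences was not tested.

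Upstream sequences are shown for the called or borderline genes that a RefSeq promoter table of build GRCm38.p6 held, so that genes with differences of opposite sign can be set side by side. The table held windows for 62 of the members, and Col1a1 is named only. For each gene the longest stretch free of annotated exons within the 250 bases before the transcript start is given 5′ to 3′ on the plus strand, on which all of these genes lie. Lamb1 is shown for chr12:31265043-31265233, Lamb3 for chr1:193301744-193301992, the first of its 2 windows, and Col1a2 for chr6:4505368-4505492. The bases next to the transcript start, 59 for Lamb1, 1 for Lamb3 and 125 for Col1a2, were left out and are not part of the matches given. The Lamb3 and Col1a2 stretches lie inside the annotated spans of their genes, which begin at 193207699 for Lamb3 and 4504814 for Col1a2. Capitals mark matches to CCAAT or to GGGCGG, the latter also as its reverse complement CCGCCC.
Lamb1: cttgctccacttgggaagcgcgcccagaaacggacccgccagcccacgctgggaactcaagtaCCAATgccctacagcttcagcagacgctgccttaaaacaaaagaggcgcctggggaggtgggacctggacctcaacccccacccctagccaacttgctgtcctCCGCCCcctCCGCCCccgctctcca
Lamb3: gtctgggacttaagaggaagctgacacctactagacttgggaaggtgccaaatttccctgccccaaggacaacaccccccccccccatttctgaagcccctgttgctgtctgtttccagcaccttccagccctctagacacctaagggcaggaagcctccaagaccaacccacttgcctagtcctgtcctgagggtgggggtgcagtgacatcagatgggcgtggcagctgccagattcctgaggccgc
Col1a2: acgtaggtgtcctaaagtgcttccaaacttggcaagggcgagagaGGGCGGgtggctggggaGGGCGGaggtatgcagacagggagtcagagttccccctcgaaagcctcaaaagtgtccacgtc
In the stretches shown, which differ in length, the lower genes Lamb1 and Col1a2 each held 2 GGGCGG matches. These were on the minus strand in Lamb1 and on the plus strand in Col1a2, and the Lamb1 stretch also held CCAAT. The Lamb3 stretch held none of the 4 motifs searched on both strands, which besides these were TATAAA and TGANTCA. Over the 250 upstream bases, GGGCGG was found in 47.1% of the 68 member windows and 32.7% of all 32851 windows, CCAAT in 26.5% and 33.8%, TATAAA in 7.35% and 12.4%, and TGANTCA in 2.94% and 6.75%. The shown stretches are shorter than the 250 bases behind these shares, so the 2 are not like for like. These matches describe letters and were not linked to the measured differences.

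The next comparison was how members behaved in each experimental group, which here serves as the replicate. Of 39 tested collagens, 20 had ratios of opposite sign in the 2 experimental groups, against 37.3% of all genes, while 2 of 10 laminins and 12 of 25 integrins did. In experimental groups 1 and 2, the log2 ratios had medians of -0.16 and 0.13 for collagens, 0.02 and 0.42 for laminins and 0.01 and 0.35 for integrins. Whether genotype acted differently in the experimental groups could not be tested, since 4 samples leave no residual degrees of freedom for that term.

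By the medians of the role groups, the widest disagreement was in leukocyte integrins, which are mostly restricted to blood-derived cells. Itgam, Itgax and Itgb2, the subunits of myeloid receptors, are named here after their values were seen. Itgb2 was at 11.5 CPM (control 1) and 1.24 CPM (control 2), against 2.78 CPM (mutant 1) and 3.93 CPM (mutant 2). Itgax was at 10.2, 1.00, 2.04 and 3.93 CPM in the same order and Itgam at 9.77, 1.05, 4.42 and 2.71 CPM. Control 1 was the highest sample for all 3 genes and control 2 the lowest. The other tested leukocyte integrins were mixed. In experimental groups 1 and 2, the log2 ratios were -1.12 and 0.83 for Itgae, but 0.18 and -0.74 for Itgal. For Itgb7 they were negative in both, at -0.38 and -0.41. Itgal was at 4.71, 6.19, 5.33 and 3.66 CPM in control 1, control 2, mutant 1 and mutant 2. The 6 tested leukocyte integrins had a median log2 ratio of -1.12 within experimental group 1 and of 1.06 within experimental group 2. Leukocyte markers also had opposite median log2 ratios, -1.73 and 0.88, over 14 tested of 16, 0 of which passed. Their sum was 609 and 771 CPM in controls and 286 and 718 CPM in mutants, of which the lysozyme gene Lyz2, also made by secretory epithelia, took 223, 693, 154 and 584 CPM in control 1, control 2, mutant 1 and mutant 2. The complement gene C1qa, a macrophage marker, was at 68.8, 8.38, 17.3 and 15.9 CPM in that order, and the defining T cell marker Cd3e was at 0 in both samples of experimental group 2. The part of leukocytes among the sorted cells in these values was not tested.

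**Figure D3:**
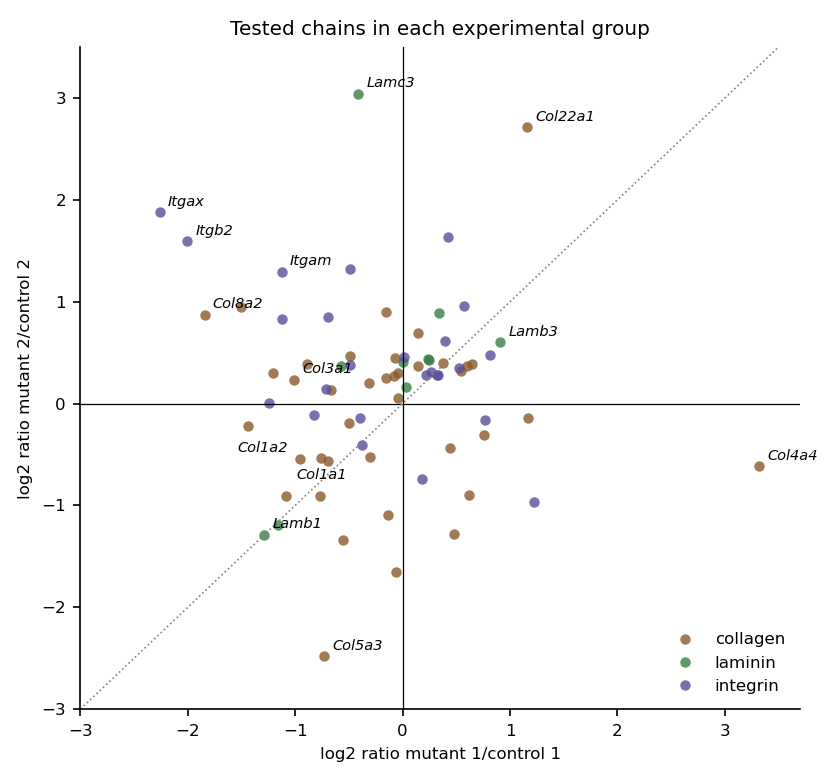
Log2 ratio of mutant to control in experimental group 2 (vertical axis) against that in experimental group 1 (horizontal axis) for the 74 tested chains, coloured by family, with a dotted line of equality. Lamb1 lies near the line at -1.29 and -1.29, whereas Itgax, Itgb2 and Itgam lie in the upper left quadrant of opposite signs.

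Experimental group was associated with larger differences than genotype in the collagens. In the same model, 17 of 39 collagens were lower in experimental group 2 than in experimental group 1 and 0 were higher, a share of 43.6% lower against 14.0% of all genes (17.7% of all genes were higher). The median log2 fold change of group 2 over group 1 was -0.79 over collagens, against -0.03 over all genes. Col1a1 fell by 2.99 on the log2 scale and Col1a2 by 2.78. Type VI collagens were lower for 3 of 3 tested, with a median of -2.02, and fibrillar collagens for 5 of 11, with a median of -1.38. Col3a1 fell by 2.48, while its neighbour Col5a2 at a distance of 24.6 kb differed by -0.06 ± 0.21 (adjusted p = 0.88).

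Among laminins, 2 of 10 (20.0%) differed by experimental group, against 31.6% of all genes in either direction. Lamb1 (log2 fold change -0.82, adjusted p = 0.0039) and Lama2 (-1.74, adjusted p = 0.0077) were lower in experimental group 2, and 0 laminins were higher. Of 25 integrins, 5 were lower (Itga3, Itga8, Itga11, Itgam and Itgb7) and 3 higher (Itga2b, Itgb1 and Itgb6), a share of 32.0% that is near the 31.6% of all genes. Itgb1 rose by 0.94 on the log2 scale (adjusted p = 0.00017), and the same coefficient was -0.24 for Itgb4 (adjusted p = 0.41). Fibroblast and leukocyte markers were also lower in experimental group 2 at the median, by -1.27 and -1.45, with 1 of 6 fibroblast and 6 of 14 leukocyte markers called lower and 2 and 1 called higher. The median was -1.53 for mural markers (4 of 8 lower, 2 higher) and -0.65 for horizontal basal cell markers (5 of 8 lower, 2 higher). It was -1.45 for mature neuron markers (9 of 10 lower), -1.33 for bone and cartilage markers (1 of 4 lower) and -0.88 for endothelial markers (3 of 10 lower), with 0 higher in each. The mural marker Rgs5 was at 138, 903, 221 and 907 CPM in control 1, control 2, mutant 1 and mutant 2. For sustentacular markers the median was 0.64 (5 of 9 higher, 0 lower). The part of these cell types in the collagen difference was not tested.

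**Figure D4:**
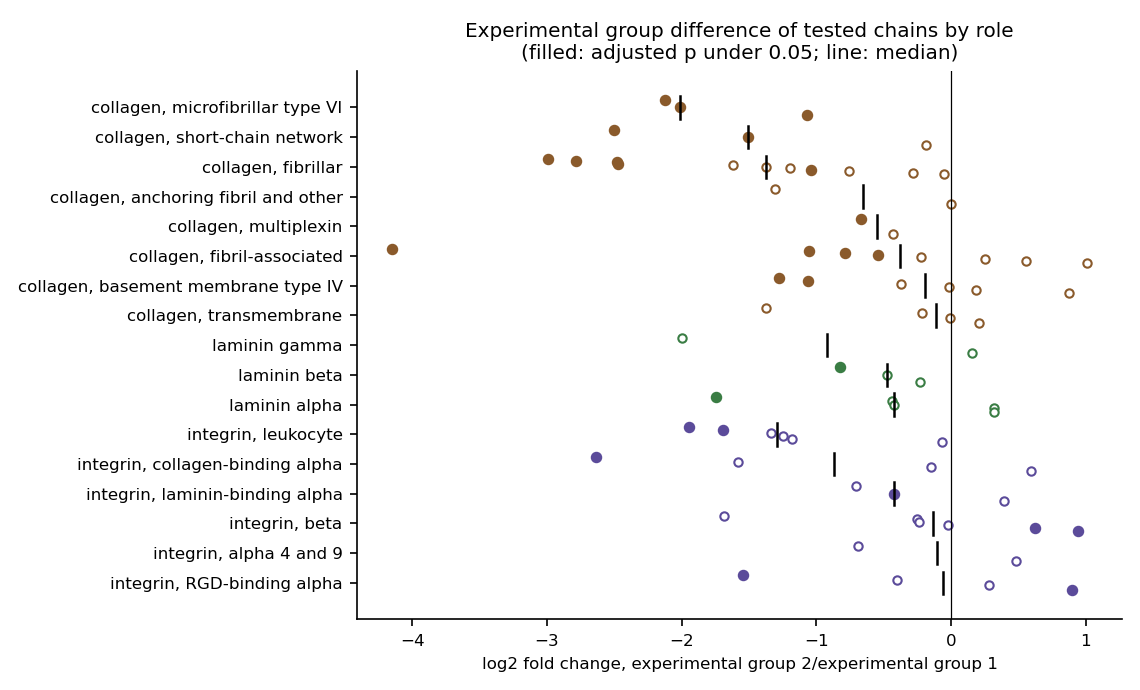
Log2 fold change of experimental group 2 over experimental group 1 (horizontal axis) for tested chains arranged by role, with filled points for an adjusted p below 0.05 and a black line at the median of each role. By the median, type VI, short-chain network and fibrillar collagens sit farthest to the left, while the single point farthest to the left is Col22a1 at -4.15. Itgb1, Itgb6 and Itga2b are the filled points to the right of 0.

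**Figure D5:**
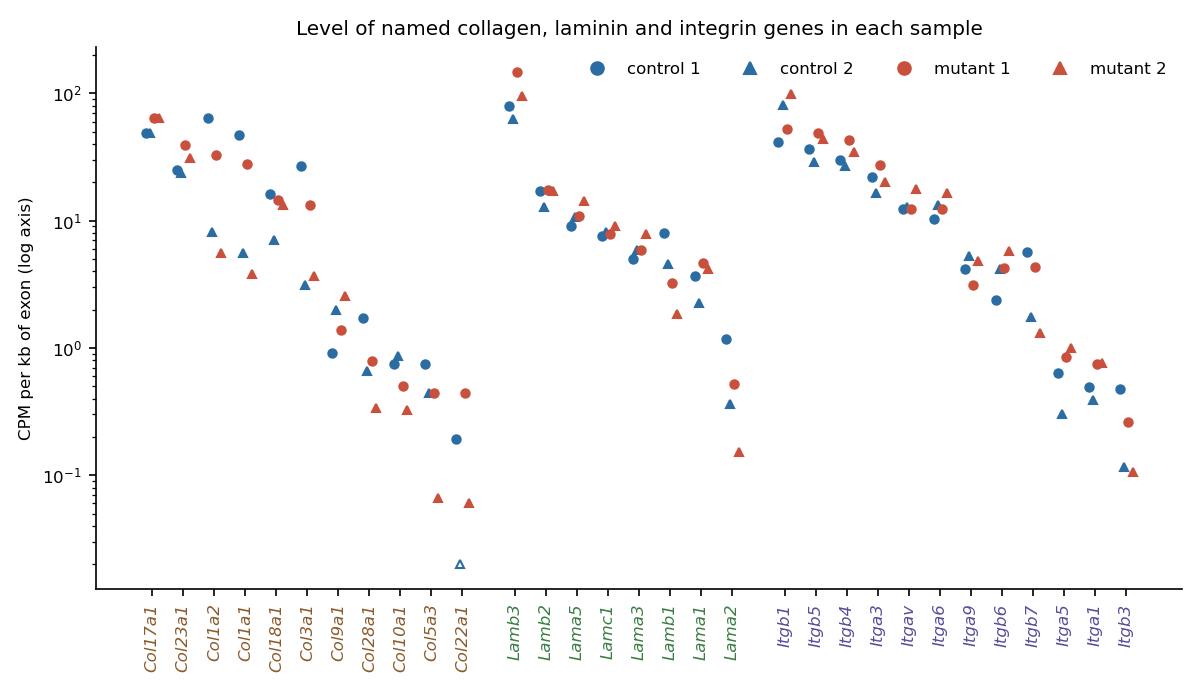
Level (CPM per kb of exon, log axis) of the named collagen, laminin and integrin genes in each sample, ordered by mean level within each family, with circles and triangles for experimental groups 1 and 2 and blue and red for control and mutant. The open triangle marks the value of 0 for Col22a1 in control 2, drawn at the foot of the axis. Lamb3, Itgb1 and Col17a1 lead their families at means of 96.3, 68.4 and 56.2 CPM per kb.

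Other genes of matrix production and adhesion were read as lists. Of 23 tested genes for collagen modification, folding and processing, 0 passed in any of the 3 tests, with a median log2 fold change of 0.14. Of 30 other basement membrane and matrix genes 0 passed the likelihood-ratio or the quasi-likelihood test (median 0.05), while DESeq2 called Dcn higher. Of 23 integrin adaptor and signalling genes 0 passed in any of the 3 tests (median 0.15). Among 10 other matrix receptors, Sdc3, a neuronal syndecan, was lower at 236 and 171 CPM in controls and 164 and 94.9 CPM in mutants (log2 fold change -0.69 ± 0.20, adjusted p = 0.0175). Sdc1, an epithelial syndecan named here after its values were seen, was at 279 and 199 CPM in controls and 418 and 312 CPM in mutants (0.62 ± 0.23, adjusted p = 0.0942, or 0.038 with the quasi-likelihood test and 0.000292 with DESeq2), and DESeq2 also called Bcam higher. Among 16 tested matrix proteases and inhibitors, Mmp16 and Mmp24, both membrane-bound metalloproteinases, were lower and Timp3, a matrix-bound inhibitor of such enzymes, was higher. Mmp24 was at 48.0 and 22.9 CPM in controls and 31.2 and 6.44 CPM in mutants (log2 fold change -1.19 ± 0.29, adjusted p = 0.00332), and Mmp16 at 30.3 and 31.6 CPM in controls and 17.9 and 15.6 CPM in mutants (-0.89 ± 0.25, adjusted p = 0.0135). Timp3 was at 102 and 85.0 CPM in controls and 144 and 130 CPM in mutants (0.55 ± 0.18, adjusted p = 0.0342). With the quasi-likelihood test none of the 3 passed, at adjusted p-values of 0.0574 for Mmp24, 0.0582 for Mmp16 and 0.0546 for Timp3, and DESeq2 called Mmp24 and Timp3.

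The members left untested were Col6a4, Col6a5, Col6a6, Col19a1, Itgad and Itgb2l, and 2 of the name matches, Itgb1bp2 and Itgb1bp3. In control 1, control 2, mutant 1 and mutant 2, Col19a1 had 10, 2, 50 and 7 counts and Itgad had 0, 0, 19 and 1. The background estimate for mutant 1 was 9.04 counts for Col19a1 and 8.77 for Itgad. Of the name matches that encode no chain, Col4a3bp, Itgb1bp1, Itgb3bp and Itgbl1 were tested and 0 passed. Itgbl1 had the largest difference of these, at 7.22 and 2.62 CPM in controls and 3.69 and 0.474 CPM in mutants (log2 fold change -1.61 ± 0.70, adjusted p = 0.213).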

How the data were processed

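Gene expression was measured by RNA-seq of ribosome-depleted RNA in 2 control and 2 mutant mice. Each deposited file holds raw read counts for gene symbols, which the authors obtained with HTSeq after alignment with TopHat2 2.0.7 and Bowtie2 2.0.6 to mm10, and the 5 tally lines of unassigned alignments entered neither library sizes nor tests. Counts were scaled by TMM factors in edgeR 4.0.16 (R 4.3.3), genes above 1 CPM in at least 2 samples were kept, and genotype was tested by likelihood ratio in a negative binomial model that also held experimental group, as in the study's methods. The Benjamini-Hochberg adjustment ran over all 15438 genes with a threshold of 0.05, and errors of log2 fold changes are Wald standard errors. Experimental group served as the replicate block, since the series text states that littermates of 1 group shared treatment and library work, and 31.6% of genes differed between the experimental groups. Ratios within an experimental group used log2 CPM with a prior count of 2 and carry no test. Levels per kb used exon lengths of GENCODE M21, in which 20953 symbols matched by current and 1920 by older name. No DESeq2 adjusted p was given for 39 of the 74 tested chains (21 collagens, 3 laminins and 15 integrins), which were left out of its calls.

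Of the symbols that match the rule, 1 is not reported here and enters no count of members. The members and gene lists were chosen with earlier results of these data known. Named genes were those past the threshold, the 6 collagens, 4 laminins and 6 integrins with the highest level per kb, the 3 tested members of each family with the largest difference in each direction and 1 sign in both experimental groups, and their trimer or dimer partners. The 5 lists of other matrix genes, and marker lists of fibroblasts, endothelial and mural cells, bone and cartilage, ensheathing glia, leukocytes, platelets, basal cells, progenitors, sustentacular cells and neurons, were counted without a set test. Alternatives were the quasi-likelihood test, DESeq2 1.42.0, no block, RLE factors, other filters, counts thinned to the smallest library, tally lines kept, a background subtracted from mutant 1, each sample left out and each experimental group alone. The scripts were tested on simulated data. Reads carry no molecular identifiers, so the limit of detection covers counting error only.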

Additional observations from a re-analysis of the deposited data

Results flagged for a closer look

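Several groups of members had ratios of mutant to control that pointed one way in experimental group 1 and the other way in experimental group 2, each from 1 mutant and 1 control, and the difference between the experimental groups was not tested. For experimental groups 1 and 2 the median log2 ratios were -0.16 and 0.13 over the tested collagens, -1.20 and 0.39 over type VI collagens, -0.55 and 0.47 over the short-chain network collagens (Col8a1, Col8a2 and Col10a1), -0.19 and 1.60 over the laminins Lamc1 and Lamc3, 0.18 and -0.15 over the integrins Itga4 and Itga9, and -1.12 and 1.06 over leukocyte integrins. Opposite signs over median ratios need not hold for each gene, as Col10a1, Lamc1, Itga9 and Itgb7 had the same sign in both. For Col18a1 the log2 ratios were -0.16 and 0.90, and for Col3a1 -1.01 and 0.23.

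Outside annotated genes lay 39.4% of the uniquely aligned reads of mutant 1, which is above the level of both controls.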

How the results depend on the processing

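The 3 called chains kept their direction and call under the quasi-likelihood test, DESeq2, RLE factors, both other filters, thinning and background subtraction. Without the replicate block 0 collagens and 0 laminins were lower, the integrin median was -0.22, and 0 other matrix genes and 0 markers passed in either direction. Of all 15438 genes, 0 were lower and 0.0389% higher in that model. Higher laminins numbered 1 instead of 0 under the quasi-likelihood test, DESeq2, RLE factors, a CPM above 1 in all 4 samples, thinning and background subtraction. DESeq2 gave 2 higher collagens, 2 higher integrins, 4 higher other matrix genes, and 7 lower and 14 higher markers, against 12 and 7. A CPM above 1 in all 4 samples gave 1 higher collagen, 1 higher integrin and 2 higher other matrix genes, no filter gave 1 higher integrin and 6 lower markers, and the quasi-likelihood test gave 1 lower other matrix gene instead of 3. The collagen median was 0.13 in experimental group 2 alone. The cause of these shifts was not tested.

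With 1 sample left out the fit is unpaired and leaves 1 sample in 1 genotype, so only effect sizes are given. The median ranged from -0.69 to 0.24 over collagens and from -0.32 to 0.54 over integrins, the extremes falling without mutant 1 and without control 1. The log2 fold change ranged from -2.81 to 1.54 for Col1a1 (0.12 without mutant 2), from -2.71 to 1.27 for Col1a2, from -0.18 to 0.99 for Col18a1, from -2.03 to 1.45 for Col3a1, from -0.033 to 1.17 for Col9a1 (-0.0013 without control 1), from -0.21 to 0.90 for Itgb1 (-0.10 without control 1), from -1.50 to 0.70 for Itgb7 (0.26 without mutant 2) and from -0.55 to 0.021 for Itga9. Genes below a few CPM are limited by depth, since 3 counts are up to 0.203 CPM here. With 2 mice per genotype, permuting the labels cannot give a p below 0.05.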
